A study of Arabidopsis thaliana with 6 samples.

Results

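The transcriptome of INA-treated npr1 leaves (npr1+INA) was compared with that of INA-treated wild-type leaves (Col+INA) over every gene model for which reads were deposited for this pair. The pair covered 24306 of the 25931 gene models of the series and 21266 of its 22183 genes. Beyond this listing nothing was selected by its values, and each gene was represented by the gene model with most reads over both libraries. Of the 21266 genes, 2778 (13.1%) were called lower and 2271 (10.7%) were called higher in npr1+INA. A call required a difference of at least 2-fold in CPM (reads of a gene scaled by the sum of its library) and a false discovery rate (FDR) of at most 0.01 in a binomial test of the split of a gene's reads between both libraries.

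Salicylic acid (SA) is the hormone through which Arabidopsis leaves mount defence against biotrophic pathogens and systemic acquired resistance, and INA is a synthetic analog that acts in its place. NPR1 is a receptor of SA and a coactivator that is brought to the promoters of defence genes by TGA transcription factors, while NIMIN proteins bind NPR1 and dampen its action. PR1, PR2 and PR5, which encode secreted antimicrobial proteins, are the usual markers of this response in leaves.

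The npr1+INA library was made from leaves of npr1-1 plants, which carry a missense allele of NPR1 in the Col-0 background, and the Col+INA library from leaves of Col-0 wild type. Both genotypes were grown in short days to an age of 4 weeks and sprayed with 300 µM INA 12 h before harvest. RNA of 3 experiments was combined into 1 library a condition, so no difference has a replicate check, and the test compares 2 libraries and not 2 conditions. Beside them stand, for levels only, Col-0 sprayed with water (Col) and the INA-treated histone acetyltransferase double mutant hac1/5 (hac1/5+INA). Water-treated npr1 was not analysed here, so a difference present before INA was not measured. In RNA of whole leaves, fewer cells of a type and less RNA per cell cannot be told apart.

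Reads on gene models summed to 6698569 in npr1+INA and 7146973 in Col+INA, with 6920927 in Col and 6944614 in hac1/5+INA. A count of 0 has an upper limit of 3 reads (0.448 CPM in npr1+INA and 0.420 CPM in Col+INA). Levels are given as reads, or as RPKM (CPM per kilobase of gene model) where genes are compared. Intervals are 95% Clopper-Pearson intervals of the ratio of CPM and cover counting error only. Markers of leaf mesophyll were abundant in both libraries. The seed gene OLEO1 had 0 reads in npr1+INA and 1 in Col+INA, and the flower gene AG 1 read in each. Of 4 root genes, PYK10 had 20 reads in npr1+INA and 4 in Col+INA and was called higher, while SCR (1570 and 1260 reads) and SHR (151 and 150), regulators of root patterning, were present in both libraries and were not called. Genes with more than 1 gene model (2722 genes) were listed at low levels, with a median of 0.80 RPKM in npr1+INA and 0.94 RPKM in Col+INA, against 4.73 and 5.07 RPKM for genes with 1 gene model, so a low value of such a gene may not be its whole level.

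NPR1 itself (AT1G64280, chromosome 1, 23852748 to 23855566) had 355 reads in npr1+INA and 1115 in Col+INA, 2.94-fold lower in npr1+INA (interval 2.61 to 3.33). Col had 286 reads and hac1/5+INA 1476. Since npr1-1 changes the protein and not the presence of the transcript, these reads do not check the label.

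The promoters of 4 genes among those with the widest differences are shown with 2 motifs of this pathway in capitals, TGACG, the core that TGA factors bind, and TTGAC, the core of the W box bound by WRKY factors. Both strands were searched in the 250 bases before the first base of the gene model, and the sequences, from RefSeq's copy of the TAIR10 genome, run 5′ to 3′ on the strand of the gene. UGT76B1 (chr3:3556455-3556704, plus strand) holds TGACG at 2 places, and PCR1 (chr1:5133717-5133966, minus strand) holds neither. Both genes were lower in npr1+INA.
UGT76B1: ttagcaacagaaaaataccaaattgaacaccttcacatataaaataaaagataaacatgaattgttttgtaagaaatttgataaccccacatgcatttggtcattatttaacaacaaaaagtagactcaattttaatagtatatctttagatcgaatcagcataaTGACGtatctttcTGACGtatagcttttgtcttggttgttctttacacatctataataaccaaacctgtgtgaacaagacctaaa
PCR1: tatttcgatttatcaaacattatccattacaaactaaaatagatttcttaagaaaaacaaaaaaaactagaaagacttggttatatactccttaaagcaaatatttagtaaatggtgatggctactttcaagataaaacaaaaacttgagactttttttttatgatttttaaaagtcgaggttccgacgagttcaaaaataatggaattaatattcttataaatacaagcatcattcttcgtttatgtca
GLP3 (chr5:6975994-6976243, minus strand) and the transposable element gene AT3G43867 (chr3:15726639-15726888, minus strand), which were higher in npr1+INA, hold neither motif.
GLP3: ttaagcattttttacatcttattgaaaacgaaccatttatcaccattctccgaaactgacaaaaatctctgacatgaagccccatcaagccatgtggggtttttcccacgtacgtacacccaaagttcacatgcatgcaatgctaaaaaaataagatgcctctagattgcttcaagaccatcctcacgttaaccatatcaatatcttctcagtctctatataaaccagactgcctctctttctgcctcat
AT3G43867: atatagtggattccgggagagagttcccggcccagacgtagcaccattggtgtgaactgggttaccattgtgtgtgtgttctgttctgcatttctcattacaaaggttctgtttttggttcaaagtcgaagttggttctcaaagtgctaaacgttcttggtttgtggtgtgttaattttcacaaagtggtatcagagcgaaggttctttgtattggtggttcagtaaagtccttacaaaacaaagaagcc

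Over the whole comparison, TTGAC stood in the windows of 57.3% of 2769 genes called lower and 37.9% of 2241 genes called higher, beside 44.7% of all 21125 genes with a window. Among the 315 genes that were lower by at least 16-fold it stood in 66.7%. TGACG stood in 27.3% of the windows of those 315 genes, near its share among all genes called lower. It stood in 27.0% of the windows of genes called lower, 19.0% of those called higher and 21.6% of all. The overlapping TTGACG, which holds both motifs, stood in 11.2%, 6.38% and 7.80% in the same order. These shares describe letters in a short window and not bound sites.

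Differences in both directions were common, and the widest were on the lower side. Genes lower by at least 4-fold numbered 1187, against 768 that were higher by as much. At 16-fold there were 315 lower and 74 higher genes, and at 64-fold 70 lower and 5 higher. Genes called lower took 6.97% of the reads of npr1+INA and 26.3% of those of Col+INA, beside 7.21% in Col and 22.2% in hac1/5+INA. Genes called higher took 21.0% of the reads of npr1+INA and 7.10% of those of Col+INA, beside 17.3% in Col and 7.85% in hac1/5+INA. The distance of npr1+INA to Col+INA in these sums was set by the choice of the genes, and the shares in Col and hac1/5+INA are a description. The lower library had 0 reads for 117 of the genes called lower and for 76 of those called higher. Of the 14505 genes with at least 20 reads over both libraries, 9649 were not called, and for 5319 genes the whole interval lay within 2-fold of equal.

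**Figure D1:**
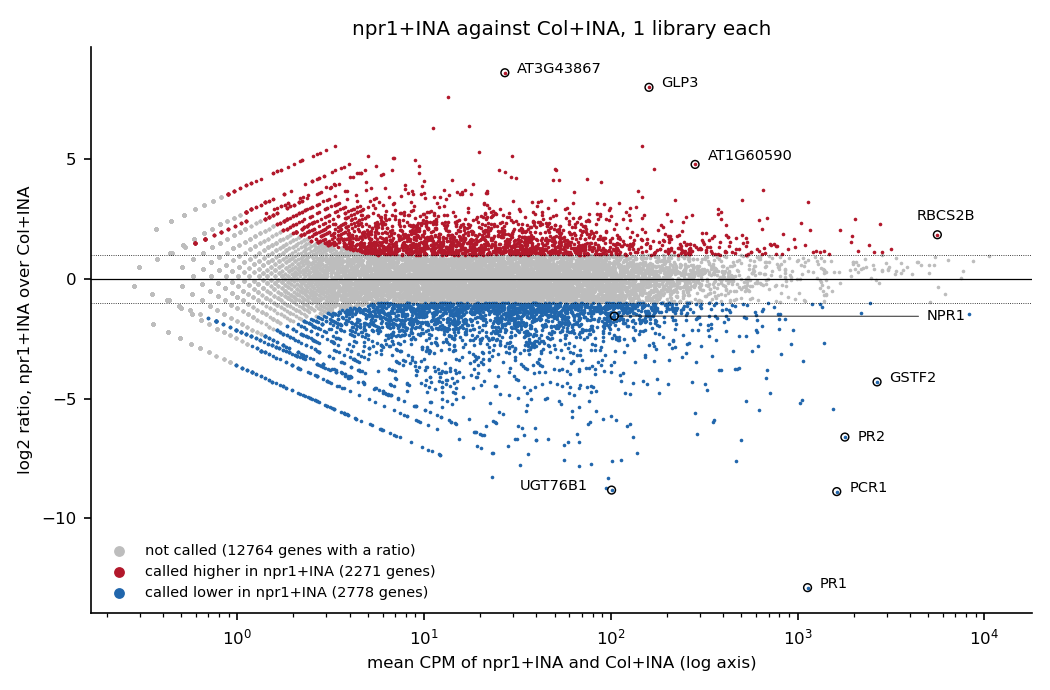
The log2 ratio of npr1+INA over Col+INA of each gene (vertical axis) is plotted against the mean CPM of both libraries (horizontal, log axis), with 2271 genes called higher in red, 2778 called lower in blue and the rest in grey. The points reach farther down (PR1, PCR1, UGT76B1) than up (GLP3, AT3G43867), and the dotted lines mark a 2-fold difference.

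The direction of the difference went with the length of the gene model, and this bears on every group of long genes below. Among genes with at least 20 reads, 22.9% of the 3367 genes of up to 1 kb were lower and 10.2% higher, whereas of the 88 genes over 6 kb 0 were lower and 63.6% (56 genes) higher. The median log2 ratio was -0.27 in the shortest band, -0.16 at 1 to 2 kb, 0.09 at 2 to 3 kb, 0.43 at 3 to 4 kb, 0.71 at 4 to 6 kb and 1.39 over 6 kb. Ratios of the other libraries to Col+INA showed the same order, with medians of -0.52 for Col and -0.08 for hac1/5+INA in the shortest band and 1.22 and 0.68 over 6 kb. These ratios all have the Col+INA library in common. In all, 1253 genes were over 3 kb, of which 87 were lower and 432 (34.5%) higher. The part of length in the results below was not tested beyond this, and counts centred on genes of like length are given beside the groups of long genes.

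**Figure D2:**
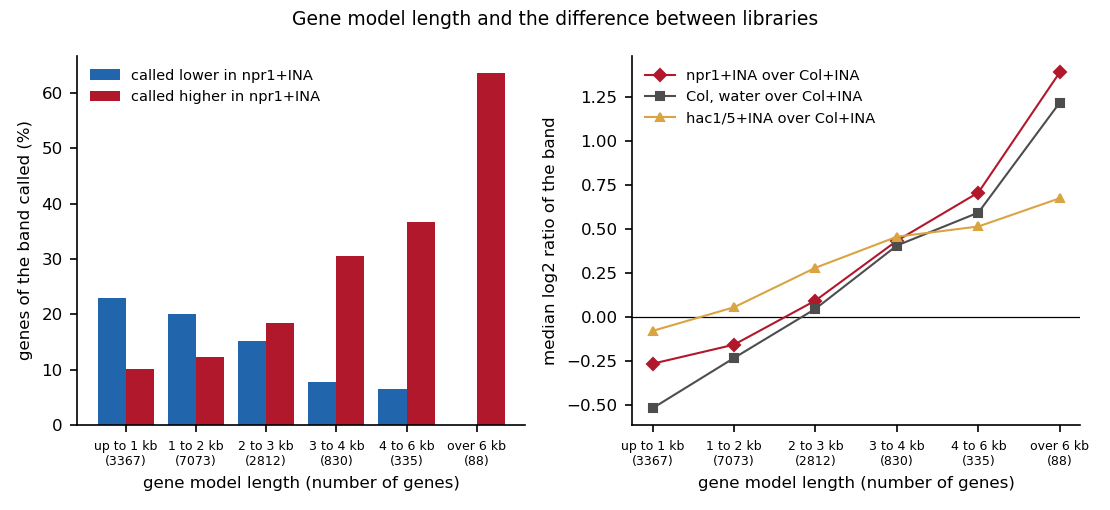
The left panel gives the share of genes called lower and higher (%) in 6 bands of gene model length, and the right panel the median log2 ratio of npr1+INA, Col and hac1/5+INA over Col+INA in the same bands, with the number of genes in parentheses. The share called higher in npr1+INA climbs to 63.6% over 6 kb, where 0 genes were called lower.

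The widest differences on the lower side were in genes with few reads in npr1+INA and many in Col+INA. PR1 had 2 reads in npr1+INA and 16158 in Col+INA, a 7572-fold difference with an interval of 2096 to 62531, beside 4 in Col and 96 in hac1/5+INA. PCR1, which encodes a small cysteine-rich membrane protein, had 46 reads in npr1+INA and 23119 in Col+INA (471-fold lower, interval 353 to 644). PR1 was near 0 in npr1+INA and in Col, and PCR1 had 8.98 RPKM in npr1+INA and 2.64 in Col. ARD3, an acireductone dioxygenase of the methionine salvage cycle, had 0 reads in npr1+INA and 1346 in Col+INA (421-fold lower against 3 reads in npr1+INA, interval from 342). It had 0 reads in Col and 18 in hac1/5+INA. AIG1, a GTP-binding protein gene known for its response to avirulent bacteria, had 12 reads in npr1+INA and 1964 in Col+INA (153-fold lower, interval 87.6 to 297).

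Several further genes with such differences are known only by their protein family. AT3G22600, of the lipid-transfer protein superfamily, had 4 reads in npr1+INA and 1375 in Col+INA (322-fold lower, interval 126 to 1184). AT1G13470 (DUF1262) had 8 and 1618 reads, AT4G03450 (ankyrin repeats) 7 and 1451, AT5G24200 (alpha/beta-hydrolase) 5 and 1120, and AT3G28510 (P-loop hydrolase) 4 and 958, npr1+INA given before Col+INA. In hac1/5+INA these 5 genes ranged between 115 reads for AT5G24200 and 2036 for AT1G13470. By the size of the difference in RPKM PCR1 was again among the first 5 genes (8.98 RPKM in npr1+INA and 4228 in Col+INA), and the other 4 had higher levels than PCR1 in npr1+INA. ECS1 had 6396 RPKM in npr1+INA and 17485 in Col+INA, GSTF2 259 and 5127, PCC1 128 and 5558, and AT2G25510, of unknown function, 2051 and 5572. The high level of ECS1 in npr1+INA, at 2.73-fold below Col+INA (interval 2.70 to 2.77), stands beside the near absence of PR1.

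Genes of the SA receptor complex were lower in part. Of 14 genes for the NPR family, NIMIN proteins and TGA factors 7 were lower and 0 higher (median log2 ratio -1.61, beside -0.06 over all genes with a ratio). NIMIN1 had 4 reads in npr1+INA and 445 in Col+INA, 104-fold lower (interval 40.4 to 384), and NIMIN2 19 and 750 (37.0-fold lower). NPR3, another SA receptor of this family, had 139 reads in npr1+INA and 988 in Col+INA (6.66-fold lower, interval 5.57 to 8.01), with 106 in Col and 1526 in hac1/5+INA. TGA3 had 183 and 713 reads and TGA7 79 and 268, and both were lower. NPR4 did not pass the 2-fold threshold, with 421 reads in npr1+INA and 764 in Col+INA. NIMIN3 differed from the other NIMIN genes, with 215 reads in npr1+INA and 126 in Col+INA (ratio 1.82, interval 1.45 to 2.29), and was not called.

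SA synthesis and turnover were lower as well. Of 9 genes for SA synthesis and its regulators 8 were lower (median -3.84). SARD1, a transcription factor that switches on SA synthesis, had 93 reads in npr1+INA and 1118 in Col+INA (11.3-fold lower, interval 9.11 to 14.1), and its relative CBP60G had 2 and 51. SAG101, a partner of EDS1, had 9 reads in npr1+INA and 87 in Col+INA, and EPS1 was not called at 165 and 158 reads. Of 6 genes that modify SA 4 were lower. UGT76B1, a glucosyltransferase that acts on SA and on isoleucic acid, had 0 reads in npr1+INA and 1443 in Col+INA (451-fold lower against 3 reads in npr1+INA, interval from 366). Its reads were 0 in Col and 1635 in hac1/5+INA. DMR6, an SA hydroxylase, had 1113 reads in npr1+INA and 10446 in Col+INA (8.80-fold lower, interval 8.27 to 9.37), and its paralogue DLO1 (AT4G10500) had 62 and 7078 (107-fold lower, interval 83.4 to 140). Genes for the turnover of SA were lower in the same library as those for its synthesis.

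The pathway of pipecolic acid, a signal of systemic acquired resistance, was lower in its 3 listed genes. ALD1, which makes the precursor, had 4 reads in npr1+INA and 796 in Col+INA (187-fold lower, interval 72.6 to 686). FMO1, which hydroxylates pipecolic acid, had 0 reads in npr1+INA and 293 in Col+INA (91.5-fold lower against 3 reads in npr1+INA, interval from 74.0). AT5G52810 had 667 and 3156 reads. In hac1/5+INA ALD1 had 188 reads and FMO1 82, between the INA-treated npr1 and Col libraries.

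Among 7 listed genes for PR proteins 6 were lower. PR2 (BGL2), a glucanase, had 244 reads in npr1+INA and 25352 in Col+INA (97.4-fold lower, interval 85.8 to 111), PR5, a thaumatin-like protein, 411 and 14583 (33.3-fold lower, interval 30.1 to 36.8), and PR4 104 and 1330. The basic chitinase gene CHIB (AT3G12500), which answers to ethylene, had 12 reads in npr1+INA and 48 in Col+INA. Of 62 genes for WRKY factors 24 were lower and 1 was higher. WRKY51 had 2 reads in npr1+INA and 330 in Col+INA (ratio 0.0065, interval 0.00078 to 0.024), WRKY38 4 and 435, WRKY30 6 and 473, and WRKY33, needed against necrotrophic fungi, 170 and 1501. WRKY49 was the single one called higher, on 9 reads in npr1+INA and 0 in Col+INA.

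**Figure D3:**
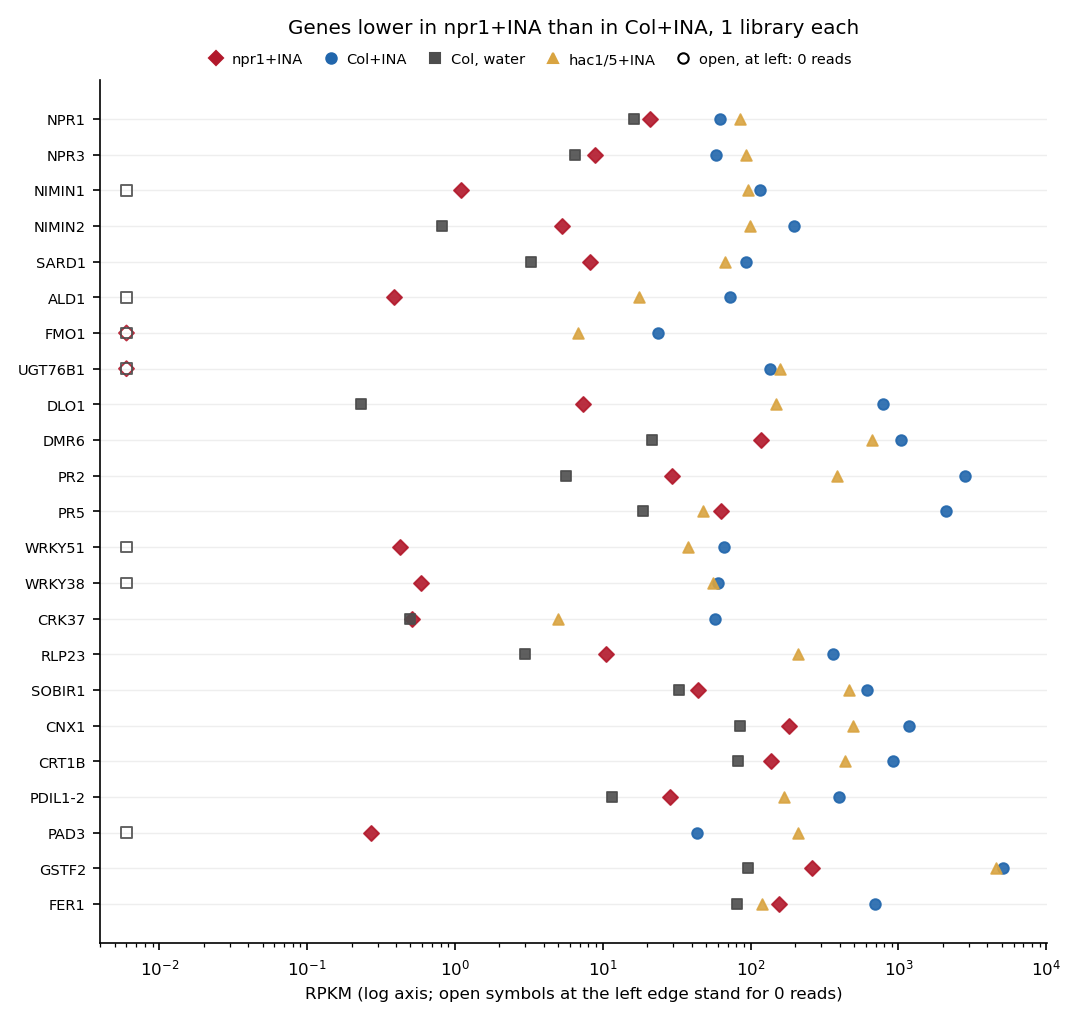
RPKM (log axis) in npr1+INA (red diamonds), Col+INA (blue circles), Col (grey squares) and hac1/5+INA (yellow triangles) of 23 genes lower in npr1+INA, 1 library each, with open symbols for 0 reads. For PR2 the levels are 29.2 RPKM in npr1+INA and 2840 in Col+INA. The red symbol lies beside the grey one in some rows, such as CRK37 (0.51 RPKM in npr1+INA and 0.50 in Col). In others it lies above, such as DMR6 (118 and 21.6) and DLO1 (7.37 and 0.23).

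Several families of cell-surface receptors had more members lower than higher. Of 36 cysteine-rich receptor-like kinases (CRK) 24 were lower and 2 higher, of 48 receptor-like proteins 27 lower and 5 higher, and of 11 wall-associated kinases 4 lower and 0 higher. CRK37 had 7 reads in npr1+INA and 837 in Col+INA (112-fold lower, interval 54.2 to 280), with 70 in hac1/5+INA. CRK23 had 6 and 447 reads, and CRK7 16 and 1086. Against these stood CRK21, with 65 reads in npr1+INA and 16 in Col+INA, and CRK29, with 43 and 20. RLP23 (AT2G32680), the receptor of the microbial nlp20 peptide, had 199 reads in npr1+INA and 7350 in Col+INA (34.6-fold lower, interval 30.1 to 40.1), and SOBIR1, the kinase with which it signals, 618 and 9129 (13.8-fold lower). Levels of RLP23 and SOBIR1 in hac1/5+INA (4118 and 6744 reads) were closer to Col+INA than to npr1+INA. RLP6, by contrast, had 53 reads in npr1+INA and 3 in Col+INA, a ratio of 18.8 with an interval of 6.11 to 94.3.

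Of 136 leucine-rich repeat kinases 18 (13.2%) were lower and 33 (24.3%) higher, beside 13.1% and 10.7% of all genes, with a median log2 ratio of 0.51. AT1G51860 had 3 reads in npr1+INA and 173 in Col+INA and stood with AT1G51820, AT1G51850 and AT1G51890 in a run of neighbours on chromosome 1 that summed to 7 and 260 reads. On the higher side stood ERECTA, a regulator of organ shape and stomatal patterning, with 434 reads in npr1+INA and 90 in Col+INA (5.15-fold higher, interval 4.09 to 6.53). BAM2, a receptor related to CLAVATA1, had 792 reads in npr1+INA and 253 in Col+INA (3.34-fold higher, interval 2.90 to 3.86), and BAM3 387 and 165. The median length of this list was 2841 bases, and centred on genes of like length 27 were higher. Of 103 genes for TIR-type receptors, which recognise pathogens inside the cell, 23 were lower and 5 higher (29 and 2 after centring). AT1G57630, a short TIR-domain gene, had 5 reads in npr1+INA and 561 in Col+INA, whereas AT4G19530 had 944 and 308.

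Several other lists lay almost wholly on the lower side. Of 19 genes for chaperones and secretion of the endoplasmic reticulum, the system through which PR proteins are folded and exported, 16 were lower and 0 higher. The lectin chaperone genes CNX1 and CRT1B (AT1G09210) had 2485 and 1617 reads in npr1+INA, against 17140 and 11399 in Col+INA (6.46-fold and 6.61-fold lower). PDIL1-2, a disulfide isomerase, had 344 reads in npr1+INA and 5078 in Col+INA (13.8-fold lower, interval 12.4 to 15.5), with 143 in Col and 2112 in hac1/5+INA. Their transcription factor gene BZIP60 (AT1G42990) had 236 and 1420 reads. In summed RPKM the list reached 661 in npr1+INA, 4162 in Col+INA, 343 in Col and 2012 in hac1/5+INA.

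Of 10 genes of the MAP kinase cascade 9 were lower, among them MPK3 with 488 reads in npr1+INA and 2054 in Col+INA, MPK6 (AT2G43790) with 513 and 1312, and MPK4 (AT4G01370) with 713 and 1665. Of 103 genes described by the words calmodulin or EF-hand 38 were lower and 6 higher (36 and 3 centred on length). Of the 6, 5 are annotated as calmodulin-binding proteins, and AT1G54450, an EF-hand gene, had 27 reads in npr1+INA and 8 in Col+INA. AT3G47480 had 23 reads in npr1+INA and 1730 in Col+INA (70.5-fold lower, interval 46.8 to 112), and CML41, a calmodulin-like protein of plasmodesmata, 4 and 246. Of 215 annotation terms with at least 20 genes, examined after values were seen, calcium ion transport had the highest share lower, 11 of 20 genes. The terms given below for cell wall biogenesis, microtubules, ribosome biogenesis and actin were likewise picked for their shares of higher genes. Its largest difference was that of CAX3, a vacuolar calcium exchanger, with 43 reads in npr1+INA and 4115 in Col+INA (89.7-fold lower, interval 66.5 to 124). The pumps ACA2 (315 and 914 reads) and ACA10 (336 and 802) were lower too, and ACA4 was higher at 640 reads in npr1+INA and 301 in Col+INA.

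Genes of detoxification and secondary metabolism were called in both directions. Of 50 glutathione S-transferases 11 (22%) were lower and 3 (6%) higher (10 and 6 centred on length). Of 135 cytochromes P450 34 (25.2%) were lower and 8 (5.93%) higher. In both lists the lower share was above the 13.1% of all genes and the higher share below the 10.7%. Of 113 UDP-glycosyltransferases 20 (17.7%) were lower and 15 (13.3%) higher, beside 13.1% and 10.7% of all genes. GSTF2 had 1719 reads in npr1+INA and 36237 in Col+INA (19.8-fold lower, interval 18.8 to 20.7), while GSTF12, which serves anthocyanin transport, had 142 and 46. PAD3, the last enzyme of camalexin synthesis, had 3 reads in npr1+INA and 512 in Col+INA (ratio 0.0063, interval 0.0013 to 0.018), with 0 in Col and 2412 in hac1/5+INA. MYB51, a regulator of indole glucosinolates, was lower with 36 reads in npr1+INA and 224 in Col+INA, and its relative MYB34 higher with 431 and 213. CYP86A8, which hydroxylates fatty acids for the cuticle (222 and 69 reads), and CYP96A12 (320 and 58) were higher, as was UGT73B1, with 477 reads in npr1+INA and 63 in Col+INA (8.08-fold higher, interval 6.20 to 10.7).

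Flavonoid genes had 0 of 12 lower and 3 higher (5 centred on length or with TMM factors as library scaling). Chalcone synthase, CHS, the entry enzyme, had 6958 reads in npr1+INA and 2709 in Col+INA (2.74-fold higher, interval 2.62 to 2.87), with 5702 in Col and 379 in hac1/5+INA. FLS1 (134 and 54 reads) and MYB111, an activator of flavonol synthesis (64 and 21), were higher too. Of 14 aliphatic glucosinolate genes 1 was called, MAM3 (AT5G23020), with 91 reads in npr1+INA, 1172 in Col+INA and 1 in hac1/5+INA.

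Of 25 genes of jasmonate, the hormone of wound and necrotroph defence, 6 (24%) were lower and 1 (4%) higher. The shares of all genes were 13.1% and 10.7%. TAT3, a tyrosine aminotransferase, had 32 reads in npr1+INA and 6629 in Col+INA (194-fold lower, interval 137 to 284). PDF1.2, the defensin marker of jasmonate and ethylene, went the other way with 163 reads in npr1+INA and 38 in Col+INA (4.58-fold higher, interval 3.20 to 6.70), beside 2 in Col and 5 in hac1/5+INA. PDF1.2 has near-identical copies, and how reads that fit several genes were counted is not stated. Of 90 AP2/ERF genes 23 (25.6%) were lower and 3 (3.33%) higher, a list taken by a word match. BAP2 on the lower side and the 3 higher genes, PAP29 and the B3-type genes NGA3 and AT4G01580, are not AP2/ERF factors. ERF1 had 0 reads in npr1+INA and 40 in Col+INA, and ERF2 30 and 168. VSP2 was near 0, with 2 reads in npr1+INA and 0 in Col+INA. LOX2 (10468 and 9144 reads) and MYC2 (AT1G32640, 883 and 941) differed little. Of 115 auxin genes 16 (13.9%) were lower and 15 (13.0%) higher, near the 13.1% and 10.7% of all genes. GH3.3 had 3 reads in npr1+INA and 127 in Col+INA, and the auxin response factor MP 147 and 33.

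**Figure D4:**
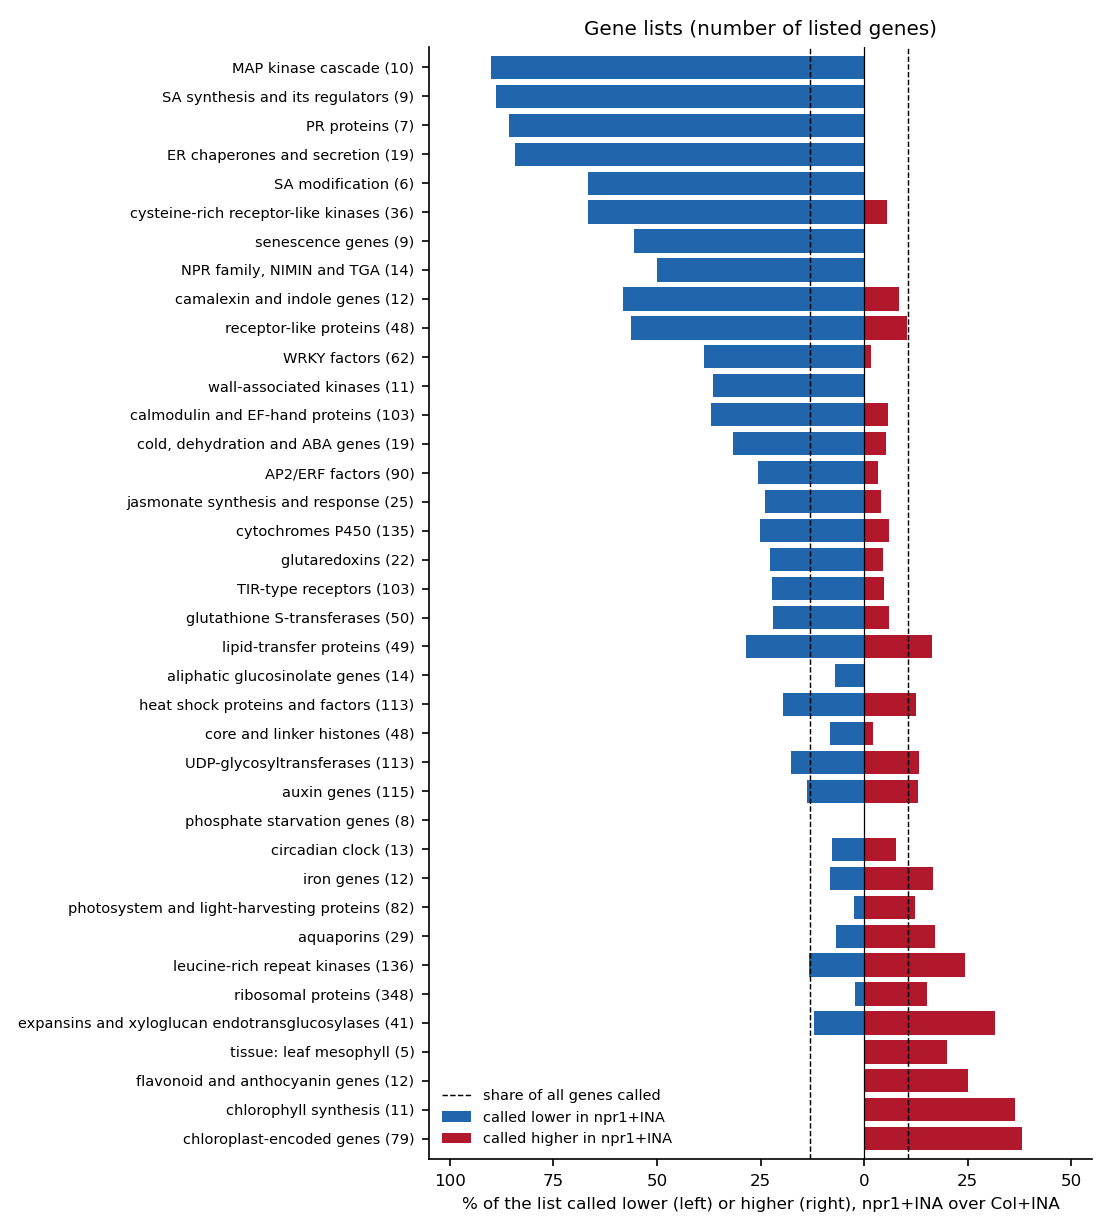
For each gene list, with its number of listed genes, the bar to the left is the share called lower in npr1+INA and the bar to the right the share called higher (%), and the dashed lines mark the shares of all genes, 13.1% and 10.7%. MAP kinase, SA and PR lists lie far to the left, and chlorophyll and chloroplast-encoded genes to the right.

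On the higher side, 5 of the genes with the widest difference encode germin-like, pectin-modifying or extensin family proteins of the cell wall and its surroundings. GLP3 (germin-like protein 3, AT5G20630, chromosome 5, 6975104 to 6975993) had 2136 reads in npr1+INA and 9 in Col+INA, 253-fold higher (interval 133 to 555), with 546 in Col and 3 in hac1/5+INA. AT1G23205, a pectin methylesterase inhibitor-like protein, had 1931 reads in npr1+INA and 44 in Col+INA (46.8-fold higher, interval 34.7 to 64.7), and AT1G60590, a pectin lyase-like protein, 3653 and 143 (27.3-fold higher, interval 23.1 to 32.4). In these 3 genes npr1+INA lay above Col as well. Levels in hac1/5+INA lay below Col+INA, which for GLP3 rests on only 3 and 9 reads. AT5G15780 and AT5G13140, of the pollen Ole e 1 and extensin family, had 2197 and 647 reads in npr1+INA, against 99 and 29 in Col+INA. CSLA15, a cellulose synthase-like gene, had 386 reads in npr1+INA and 12 in Col+INA, and only 36 in Col.

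Of 41 expansins and xyloglucan endotransglucosylases, which loosen and rebuild walls, 13 (31.7%) were higher and 5 (12.2%) lower. The shares of all genes were 10.7% and 13.1%. EXPA10 had 371 reads in npr1+INA and 21 in Col+INA (18.8-fold higher, interval 12.1 to 30.8), EXPA15 154 and 26, and XTH6 1505 and 596. MERI5B (XTH24) was lower, at 191 reads in npr1+INA and 1983 in Col+INA (9.73-fold lower, interval 8.38 to 11.3). Among 96 description texts shared by at least 20 genes, examined after values were seen, pectin lyase-like proteins had 20 of 43 genes higher and 0 lower, and proteins of the DUF827 family 10 of 20 higher and 0 lower. PPR proteins, which process transcripts in organelles, had 43 of 187 higher and 1 lower, GDSL lipases 13 of 44 and 4, and NPH3 family proteins 8 of 30 and 0. Each of these exceeded the 10.7% of all genes, and they were picked because they did.

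Several genes of the secondary wall, the thick wall of xylem vessels and fibres, were higher. Those named here were picked after their values were seen. CESA4 had 309 reads in npr1+INA and 65 in Col+INA (5.07-fold higher, interval 3.87 to 6.73), CESA7 (IRX3) 167 and 45 (3.96-fold, interval 2.83 to 5.63), and CESA8 126 and 37 (3.63-fold, interval 2.50 to 5.39). These are the 3 subunits of the cellulose synthase of secondary walls. Their switch MYB46 had 24 reads in npr1+INA and 6 in Col+INA, the laccase IRX12 433 and 104, the xylan gene IRX9 95 and 27, and the tracheary element genes TED6 and TED7 150 and 128 reads in npr1+INA, against 48 and 26 in Col+INA. In the annotation term for biogenesis of the plant wall 15 of 37 genes were higher and 1, FRA8, was lower (26 reads in npr1+INA and 92 in Col+INA). The CESA genes are over 3 kb long, and after centring on genes of like length 12 of the 37 were higher. Summed over the 3 CESA genes, npr1+INA had 602 reads, Col+INA 147, Col 374 and hac1/5+INA 210.

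Of 82 photosystem and light-harvesting genes 10 (12.2%, near the 10.7% of all genes) were higher and 2 lower. Centred on genes of like length 22 were higher and 1 lower, beside 11.3% of all genes that were then higher. LHCB2.4 had 7772 reads in npr1+INA and 1452 in Col+INA (5.71-fold higher, interval 5.40 to 6.04) and LHCA6 2204 and 956. RBCS2B, a small subunit of Rubisco, had the largest difference in RPKM among genes called higher, with 10162 in npr1+INA and 2848 in Col+INA, while RBCS1A was not called (2472 and 1516 RPKM). RBCS and LHCB genes have near-identical copies, so the split of reads between copies is uncertain. The carbonic anhydrase gene CA1 had 19333 reads in npr1+INA and 7127 in Col+INA (2.89-fold higher, interval 2.82 to 2.97), and Rubisco activase, RCA, 3101 and 2970. Of 11 chlorophyll genes 4 were higher and 0 lower. CHLH (GUN5), a subunit of magnesium chelatase, had 1799 reads in npr1+INA and 671 in Col+INA, and 1798 in Col.

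Transcripts of the chloroplast genome took 4.03% of reads in npr1+INA and 2.02% in Col+INA, beside 2.86% in Col and 2.50% in hac1/5+INA. Of 79 chloroplast-encoded genes 30 were higher and 0 lower. Genes for the chloroplast ribosome led, with ATCG00800 at 13667 reads in npr1+INA and 1579 in Col+INA (9.23-fold higher, interval 8.77 to 9.73) and RPL22 at 6116 and 678 (9.62-fold higher, interval 8.89 to 10.4). Of 19 chloroplast-encoded ribosomal protein genes 14 were higher. The chloroplast RNA polymerase genes RPOA (6999 and 1751 reads) and RPOB (1160 and 203) were higher too. Of 328 ribosomal protein genes in the nucleus 39 (11.9%, beside 10.7% of all genes) were higher and 8 lower, and centred on length 57 were higher and 6 lower. Chloroplast transcripts mostly lack poly(A) tails, and how RNA was selected for these libraries is not given in the sources used here.

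Ribosome assembly genes were higher in part. The annotation term for ribosome biogenesis had 13 of 33 genes higher and 0 lower, and 14 after centring on length. TOZ, a nucleolar protein of early embryos, had 231 reads in npr1+INA and 68 in Col+INA, the fibrillarin gene FIB2 160 and 74, and CRB, a chloroplast RNA-binding protein that also serves the chloroplast ribosome, 23533 and 9440. In Col these 3 genes had 129, 84 and 18188 reads, of which the 84 of FIB2 were close to its 74 in Col+INA.

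In the annotation term for microtubule-based processes 28 of 71 genes were higher and 1, TUA3, was lower (32 reads in npr1+INA and 230 in Col+INA). The kinesin gene POK2, which positions the division plane, had 59 reads in npr1+INA and 3 in Col+INA (ratio 21.0, interval 6.84 to 105), POK1 had 36 and 5, and HIK, needed for cytokinesis, 42 and 6. TUB5, which encodes a beta-tubulin, had 374 reads in npr1+INA and 164 in Col+INA. Of 21 genes for actin-based processes 8 were higher, mostly myosins, such as XIG with 196 reads in npr1+INA and 18 in Col+INA and MYA1 with 366 and 124. The median lengths of these terms were 3033 and 4482 bases. Centred on genes of like length, 24 of 71 and 6 of 21 genes were higher.

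**Figure D5:**
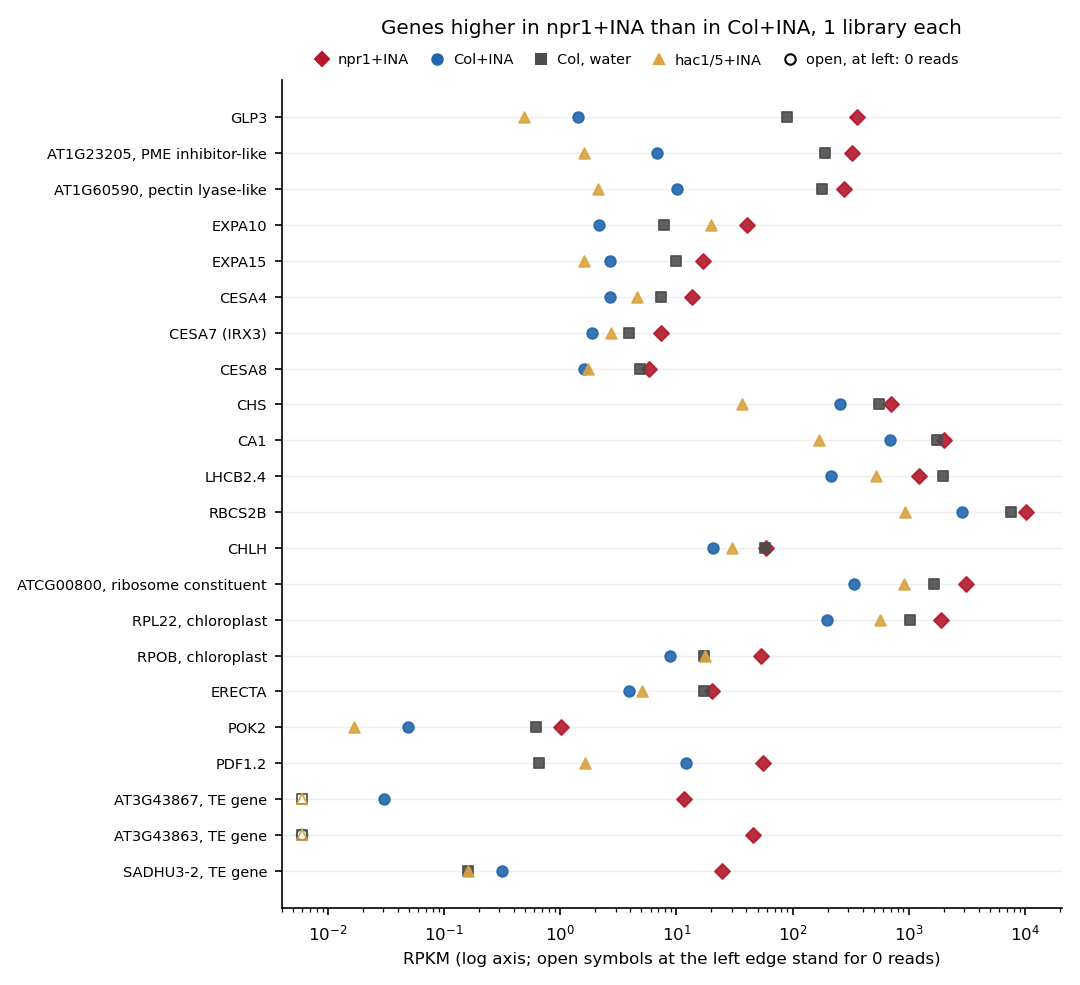
RPKM (log axis) in npr1+INA (red diamonds), Col+INA (blue circles), Col (grey squares) and hac1/5+INA (yellow triangles) of 22 genes higher in npr1+INA, 1 library each, with open symbols for 0 reads, which overlie each other for AT3G43863. GLP3 stands at 358 RPKM in npr1+INA and 1.41 in Col+INA, and the 3 transposable element genes at the bottom are near 0 outside npr1+INA.

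Reads found in npr1+INA and hardly in any other library were those of transposable element genes. Of all genes, 8 had at least 50 reads in npr1+INA and at most 2 in each of the other 3 libraries, and all of them are annotated as transposable element genes. AT3G43867 had 362 reads in npr1+INA and 1 in Col+INA (ratio 386, interval 68.9 to 15297). AT3G43863 had 232 and 0 (82.5-fold higher against 3 reads in Col+INA, interval from 66.6), and AT3G43862 179 and 1. These 3 lie within chromosome 3 from 15714896 to 15726638. SADHU3-2, a retroposon on the same chromosome (14749400 to 14750294), had 147 reads in npr1+INA and 2 in Col+INA, and 1 each in Col and hac1/5+INA. By the reverse rule, at most 2 reads in npr1+INA and at least 50 in each of the other 3 libraries, there were 0 genes. That rule needs reads in water-treated Col and so takes no gene that was near 0 without INA.

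Of 407 transposable element genes 45 (11.1%, beside 10.7% of all genes) were higher and 6 lower. Most of the class could not be called, since 166 of the 407 genes, against 17813 of all 21266, had more than 3 reads in either library. Reads fell on 338 of the 407 genes in npr1+INA and on 246 in Col+INA. The counts were 226 in Col and 208 in hac1/5+INA. Genes listed only for other pairs are not among the 407, which bears on the counts of Col and hac1/5+INA. Over all genes the counts were 19857, 19969, 19029 and 18993 in the same order. Of the 45 higher genes 17 had 0 reads in Col+INA, 11 of them also in Col and hac1/5+INA, while 21 had at least 20 reads in Col. AT3G28160 had 501 reads in npr1+INA, 78 in Col+INA and 451 in Col, an example of the second kind. After centring on length 35 were higher and 10 lower. Only 1 library of 1 npr1 allele stands behind these values.

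Water and lipid transport held some abundant genes that were higher. DELTA-TIP, a vacuolar aquaporin, had 8113 reads in npr1+INA and 670 in Col+INA (12.9-fold higher), with 6983 in Col and 170 in hac1/5+INA. In the list of 29 aquaporins, which does not hold DELTA-TIP, 5 (17.2%) were higher and 2 (6.9%) lower. The shares of all genes were 10.7% and 13.1%. ELP, an extensin-like protein, had 1733 reads in npr1+INA and 146 in Col+INA, and BRS1, a carboxypeptidase of brassinosteroid signalling, 783 and 69, both named after their values were seen. Among 49 lipid-transfer proteins 14 (28.6%) were lower and 8 (16.3%) higher, both above the shares of all genes. LP1 was among the higher ones with 5319 reads in npr1+INA and 1976 in Col+INA. The iron store FER1 was lower, at 1479 reads in npr1+INA and 7032 in Col+INA (4.46-fold lower, interval 4.21 to 4.72), and the iron deficiency factor BHLH038 higher at 42 and 9.

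Other lists had few calls or calls in both directions. Of 48 genes taken by words for histones 4 (8.33%) were lower and 1 (2.08%) higher (2 and 1 centred on length). Both shares were below those of all genes, 13.1% and 10.7%. The lower ones included AT1G77660 and AT1G21920, which are annotated as histone methyltransferases. Of 13 clock genes 1 was lower (TOC1, 58 reads in npr1+INA and 234 in Col+INA) and 1 higher (ELF3, 57 and 26). Of 8 phosphate starvation genes 0 were called. Heat shock proteins and factors had 22 of 113 (19.5%) lower and 14 (12.4%) higher, beside 13.1% and 10.7% of all genes. Hsp70-2 had 434 reads in npr1+INA and 6333 in Col+INA, and the chloroplast chaperone cpHsc70-1 9254 and 3979. Of 9 senescence genes 5 were lower, among them NAP with 340 reads in npr1+INA and 1296 in Col+INA. Few markers of leaf cell types were called, with 1 of 3 guard cell markers higher (FAMA, 298 and 157 reads), 0 of 3 phloem markers called and 1 of 5 mesophyll markers higher (CA1). Called or not, the log2 ratios of guard cell markers (0.70 to 1.02) and mesophyll markers (0.11 to 1.53) were all above 0. Those of phloem markers (-2.13 to -0.31) were all below 0. The part of cell composition in the other lists was not tested.

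Neighbouring genes were sometimes lower together. In 20 places at least 4 adjacent listed genes were all lower, 89 genes in all, and in 5 places all higher, 20 genes. The longest run, 8 genes on chromosome 2 from 18321994 to 18336364 of which 4 encode C1-domain proteins, had 418 reads in npr1+INA and 1537 in Col+INA. CRK36 to CRK39 on chromosome 4 had 31 reads in npr1+INA and 1771 in Col+INA (53.5-fold lower in the sum), and 5 genes for copper or heavy metal transport proteins on chromosome 5 had 54 and 2081. AZI1, a lipid-transfer protein of systemic immunity, and its 3 neighbours had 15 reads in npr1+INA and 567 in Col+INA. A run that was higher, AT5G16715 to AT5G16750 on chromosome 5, had 2930 reads in npr1+INA and 755 in Col+INA. Tandem copies with like sequences share reads that fit more than 1 gene, so their single values are uncertain where the run is one family.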

How the data were processed

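RNA-seq of 6 conditions was made on Illumina HiSeq 2000, and 4 were used here. Reads were aligned by the authors to TAIR10 (per the labels) in SOAPaligner/soap2 with at most 2 mismatches. The handling of reads that match more than 1 gene is not given in the sources used here. The authors deposited 3 tables of 2 libraries each, with unnormalized read counts per gene model and RPKM (0 written as 0.001). RPKM recomputed from the counts differed by at most 5.8e-08 on the log2 scale. The deposited log2 ratios, p-values and FDR values of the authors' own comparisons were not used. Columns of values belonging to no sample numbered 0. Gene models missing from the table of another pair were taken as 0 reads in it, 1024 for Col and 1225 for hac1/5+INA, all with 0 reads in Col+INA.

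Counts of npr1+INA and Col+INA were compared gene model by gene model in a binomial test (exact, two-sided), with Benjamini-Hochberg adjustment over the 24306 models. Zero counts were set to 3 reads for ratios, and no ratio was formed where both libraries had at most 3 reads. The procedure was tested on simulated counts that held counting error only. Spread between samples was not simulated, so that check does not bear on it. Named genes were, among called genes with at least 100 reads, the 15 in each direction with the interval bound farthest from equal and the 5 with the largest difference in RPKM, in each of 45 lists the 4 with the largest ratio and at least 20 reads and members called against the rest, genes the study names, and runs of at least 4 neighbours. Members of annotation terms and of families, and other genes outside this rule, were chosen after their values were seen. Lists of families were taken by words in the deposited descriptions and hold some genes that only bind or modify the named proteins. All members and lists were chosen with earlier results of these data known. The promoter sequence of 1 gene is not reported here. Coordinates were taken from the deposited tables, and the spans of 99.97% of 21082 genes overlapped the RefSeq gene of the same name. Alternatives were other thresholds, filters, library scalings and gene summaries and edgeR's exact test with an assumed variation. Tools were DESeq2 1.42.0 and edgeR 4.0.16 in R 4.3.3 for alternatives, and SciPy 1.17.1, NumPy 2.4.6, pandas 2.3.3, pysam 0.24.0 and matplotlib 3.10.9 in Python 3.11.15.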

Additional observations from a re-analysis of the deposited data

How the results depend on the processing

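No paired analysis was possible because each condition has 1 library, and for the same reason no replicate could be left out. Among the 401 genes with a ratio that the naming rule took, no called gene changed direction under the alternatives run for single genes. These were TMM and DESeq2 size factors, log2(RPKM + 1), summed reads and centring on genes of like length. Uncalled genes were not checked for a change of direction. As a call needs a difference of at least 2-fold, small shifts of scaling could hardly reverse it. With edgeR's exact test and an assumed biological coefficient of variation of 0.2, 1528 genes were lower and 968 higher, and with 0.4 there were 321 and 43. At a fold threshold of 4 the counts were 1187 and 768. These settings demand more of each gene by construction, and the counts of gene lists follow them, with 60 of 90 moved at 0.4 and 37 of 90 at 0.2. At 0.4 the MAP kinase list had 0 lower genes in place of 9, endoplasmic reticulum chaperones 1 in place of 16, chloroplast-encoded genes 0 higher in place of 30, expansins and xyloglucan endotransglucosylases 1 in place of 13, and leucine-rich repeat kinases 1 in place of 33, while PR proteins had 5 lower genes in place of 6 and WRKY factors 12 in place of 24. An FDR threshold of 0.2 gave 3373 lower and 3013 higher genes, TMM factors 2635 and 2447 (a shift of 0.05 on the log2 scale), DESeq2 size factors 2789 and 2256, log2(RPKM + 1) 2540 and 1786, a filter of at least 10 reads 2831 and 2321, any passing gene model 2786 and 2280, and reads summed over gene models 2817 and 2328. Centring on genes of like length, chosen after seeing the data, gave 2461 lower and 2394 higher genes, of which 2309 and 1978 were shared with the counts of the report. Of these 401 genes, 23 lost their call under this centring, 32 under log2(RPKM + 1), 7 with TMM factors and 1 each with DESeq2 size factors and summed reads. Depth limits genes with few reads, since 3 reads in npr1+INA are 0.448 CPM.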
